A study of Mus musculus with 6 samples.

Results

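Retinoic acid signalling in the cortex was described through 9 genes, Cyp26b1 and 8 genes that make, carry or sense the same molecule, out of 55421 genes measured. The gene Cyp26b1 was chosen because of its lower level at 24 months in these libraries, and Aldh1a1, Aldh1a2, Aldh1a3, Rara, Rarb, Rarg, Rbp4 and Crabp1 were added by their place in the pathway. All 9 were chosen with earlier results of these data known. The samples were cortex of wild-type male C57BL/6J mice, 3 of 6 months (mice 10, 11 and 17) and 3 of 24 months (mice 2, 4 and 5), all anaesthetised with isoflurane before cervical dislocation. Each library came from 1 mouse and from 10 ng of total RNA of the cortex as a whole, so that all cell types were measured together. The comparison asked how the level of each RNA differed between the ages.

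Retinoic acid is a small lipid made from vitamin A (retinol), and it controls transcription through nuclear receptors. Retinol is carried in blood by RBP4, oxidised to retinaldehyde, and then turned into retinoic acid by the ALDH1A enzymes. Retinoic acid binds the receptors RARA, RARB and RARG, which sit on DNA as pairs with the retinoid X receptors, whereas CYP26 enzymes oxidise it so that it no longer acts. In the adult brain the balance of these enzymes sets where retinoic acid can act, and it is known for a role in synaptic plasticity.

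The totals of the deposited counts ranged from 29495379 to 36494240 per library. TMM scaling of edgeR was used, and the values below are CPM, counts scaled to a common library size, unless TPM, which also divides by gene length, is named. An FDR given for a gene is its p in the quasi-likelihood test of edgeR after Benjamini-Hochberg adjustment over all 32905 genes with at least 10 counts. Over these genes the median log2 fold change was 0.15, and over the 15761 genes of at least 1 CPM it was -0.14. With totals in place of TMM these medians stood at 0.34 and 0.05, a shift to bear in mind for any small difference. The TMM factors were 0.9205 to 0.9459 at 6 months and 1.037 to 1.101 at 24 months, so that the scaling itself was split by age. The library of the 24-month mouse 2 had the lowest total and the TMM factor farthest from 1, at 1.101. Genes with any count numbered 33974 to 35651 at 6 months and 40208 to 43561 at 24 months. Olfactory, vomeronasal, taste and trace amine receptor genes (1831 genes), the sensory receptor genes below, were taken as a reference of low level. They were at 0.022 to 0.0248 CPM per kb at 6 months and at 0.053 to 0.0853 at 24 months. The study reported sensory perception as a main function of the genes that rose with age, so this density need not be background. Values near that density are given with it.

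The positions of the genes in GRCm38 are on chromosome 19 at 20492715 to 20643465 for Aldh1a1 (ENSMUSG00000053279.8), on chromosome 9 at 71215789 to 71296243 for Aldh1a2 (ENSMUSG00000013584.5) and on chromosome 7 at 66390890 to 66427517 for Aldh1a3 (ENSMUSG00000015134.15). The receptors lie on chromosome 11 at 98927818 to 98974942 (Rara, ENSMUSG00000037992.16), on chromosome 14 at 16430839 to 16819156 (Rarb, ENSMUSG00000017491.9) and on chromosome 15 at 102234938 to 102257517 (Rarg, ENSMUSG00000001288.15). The carriers lie on chromosome 19 at 38116629 to 38125281 (Rbp4, ENSMUSG00000024990.13) and on chromosome 9 at 54764748 to 54773110 (Crabp1, ENSMUSG00000032291.8). Values are over all exons of a gene.

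To show the sequences on which these genes are read, the 250 bases before a start site of Rarb, of Cyp26a1 (the close relative of Cyp26b1) and of Cyp26b1 are printed from the RefSeq promoter windows (GRCm38.p6). They are 5′ to 3′ on the strand of the gene, and capitals mark a match to the DR5 retinoic acid response element, a direct repeat of a hexamer spaced by 5 bases, searched on both strands. The Rarb stretch is at chr14:16575477-16575726 on the minus strand, the Cyp26a1 stretch at chr19:37697558-37697807 on the plus strand, and the Cyp26b1 stretch at chr6:84593811-84594060 on the minus strand.
Rarb: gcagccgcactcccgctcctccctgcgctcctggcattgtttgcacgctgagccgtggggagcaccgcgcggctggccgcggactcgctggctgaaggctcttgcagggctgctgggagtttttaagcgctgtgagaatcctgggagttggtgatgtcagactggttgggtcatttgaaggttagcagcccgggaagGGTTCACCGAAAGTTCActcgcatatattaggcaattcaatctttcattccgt
Cyp26a1: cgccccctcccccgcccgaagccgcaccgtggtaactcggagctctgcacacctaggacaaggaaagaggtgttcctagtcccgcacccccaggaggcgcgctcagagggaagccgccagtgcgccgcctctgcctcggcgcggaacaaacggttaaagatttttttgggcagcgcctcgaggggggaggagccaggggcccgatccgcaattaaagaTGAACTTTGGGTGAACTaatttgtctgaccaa
Cyp26b1: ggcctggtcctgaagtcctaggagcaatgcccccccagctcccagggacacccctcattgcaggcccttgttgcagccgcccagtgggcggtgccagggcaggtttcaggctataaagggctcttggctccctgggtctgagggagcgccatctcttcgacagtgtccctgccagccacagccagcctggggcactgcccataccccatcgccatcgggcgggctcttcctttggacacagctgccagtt
The RefSeq starts differ from the GENCODE ends of the genes, so that 98 bases of the Cyp26b1 stretch, 10 of the Cyp26a1 stretch and all of the Rarb stretch lie inside the GENCODE gene. The match lay 53 to 37 bases before the start in Rarb, and 32 to 16 bases before it, on the opposite strand, in Cyp26a1. The Cyp26b1 stretch held no match and had 64.8% G and C. Of all 32851 windows of 300 bases, 32 held a DR5 match (0.0974%). The 50 genes of the 9 and of the wider pathway list that had a window had 71 windows. Of these genes 2, Rarb and Cyp26a1, held a match. The first is a share of windows and the second a count of genes, so they cannot be compared. Of the 9 genes, 8 had a window. A match is a description of the letters and no measurement of binding.

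**Figure D1:**
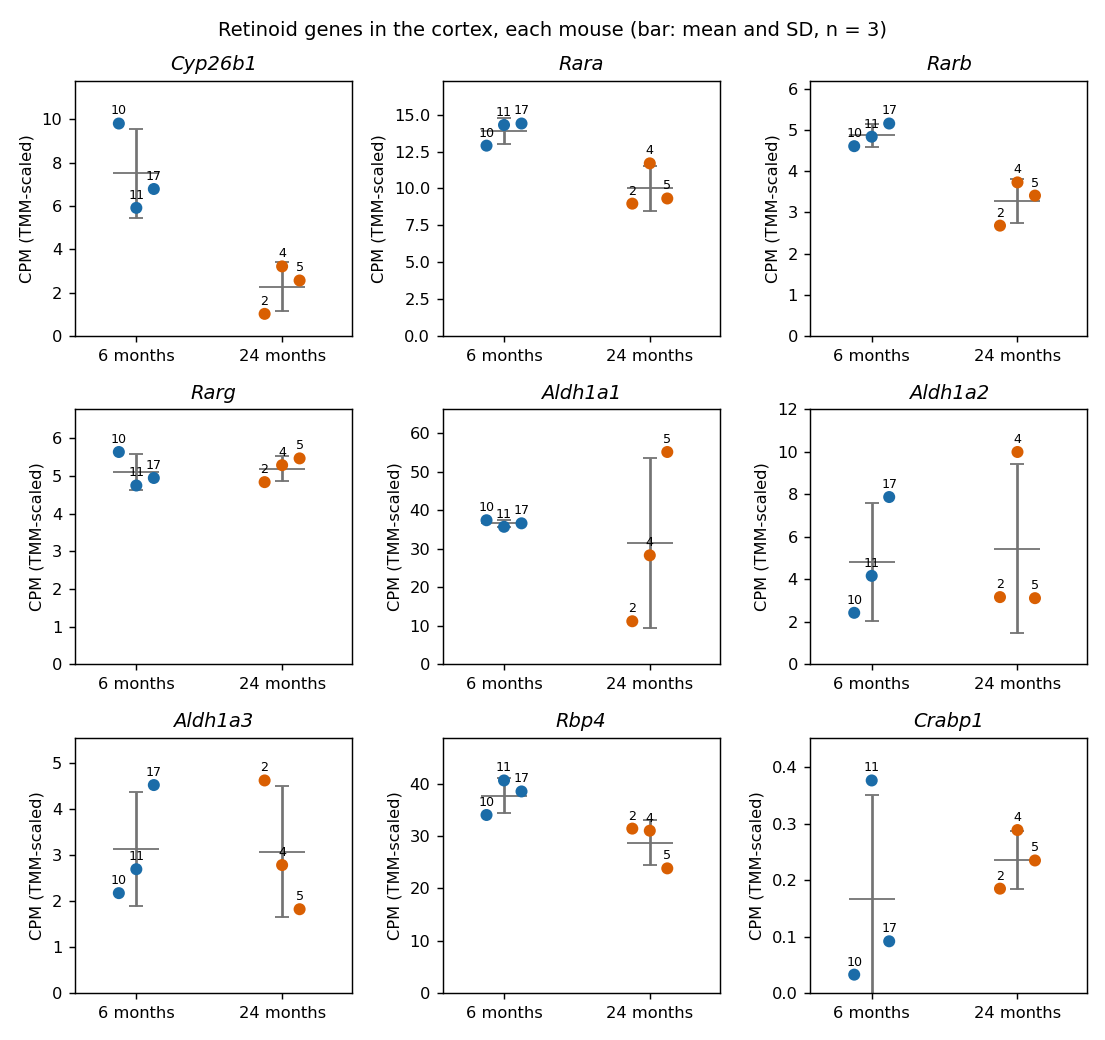
TMM-scaled CPM of the 9 genes in each mouse, with mouse numbers beside the points and the mean and SD (n = 3) as bars. Cyp26b1, Rara, Rarb and Rbp4 lie lower in every 24-month mouse than in every 6-month mouse, whereas the other genes overlap. With library totals in place of TMM, Rara and Rbp4 overlap too, and Rarg is higher in every 24-month mouse.

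Cyp26b1, which encodes the retinoic acid hydroxylase CYP26B1, was the lowest in relation to 6 months of the 9 genes. The 6-month mice 10, 11 and 17 had 302, 204 and 222 counts, and the 24-month mice 2, 4 and 5 had 33, 111 and 87 counts. These gave 9.80, 5.91 and 6.78 CPM at 6 months and 1.02, 3.21 and 2.56 CPM at 24 months. All 3 aged mice lay below all 3 young mice, and mouse 2 was the lowest. The means were 7.50 ± 2.04 CPM and 2.26 ± 1.13 CPM (SD, n = 3 each), and the fitted log2 fold change was -1.72 with a standard error of 0.35, which is 30.3% of the level at 6 months. No p is given for it, because it was chosen by this difference. Leaving out mouse 2 gave -1.37, and leaving out mouse 4 gave -2.05. Scaling by library totals gave -1.53. The gene (ENSMUSG00000063415.12) lies on the minus strand of chromosome 6 at 84571414 to 84593908 (GRCm38).

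At the density of the sensory receptor genes, a gene of the length of Cyp26b1 would have 3.63 to 4.42 counts at 6 months and 9.66 to 14.8 counts at 24 months, which was 1.70% and 16.3% of what was observed. By TPM the gene stood at 6.40, 3.91 and 4.46 in the young mice and at 0.724, 2.28 and 1.82 in the aged mice. Immediate early genes, which neurons switch on when active, were highest in mouse 2 for 7 of 10 genes, and their sum was 3030, 3600 and 1760 CPM at 6 months and 3690, 830 and 664 CPM at 24 months. The summed neuron markers were 8910 to 10400 CPM at 6 months and 6570 to 8690 CPM at 24 months, and 6 of these 8 markers were lowest in mouse 2, as were 7 of 7 oligodendrocyte (2380 to 3740 and 1270 to 4080 CPM) and 5 of 6 endothelial markers. The markers of the labelled tissue were present in every library. Markers of the striatum, which borders the cortex, summed to 238 to 260 CPM at 6 months and 163 to 223 CPM at 24 months. Claustrum and deep-layer markers, of which 6 of 7 were found, summed to 59.6 to 98.3 CPM and 42.4 to 65.2 CPM without Synpr, which led the sum, and to 377 to 402 CPM and 250 to 361 CPM with it. The sums overlapped between the ages for astrocytes (3250 to 3540 and 3220 to 3690 CPM), microglia (437 to 440 and 415 to 450 CPM), endothelial cells (135 to 150 and 94.9 to 175 CPM), choroid plexus without Enpp2 (9.82 to 12.6 and 10.2 to 15.1 CPM) and interneurons (477 to 544 and 417 to 542 CPM). Astrocytes without Slc1a2 (1890 to 1970 and 1780 to 1860 CPM) and interneurons without Kcnc1 (326 to 333 and 268 to 323 CPM) did not overlap. Ages did not overlap in 2 of 7 astrocyte (lower), 2 of 7 microglial (1 lower, 1 higher), 2 of 8 choroid plexus (higher) and 1 of 6 interneuron markers (lower). It was 0 of 6 in endothelial markers, beside 36.3% of all genes tested. In such bulk samples, fewer cells of a type and less RNA per cell cannot be told apart, and the part of these markers in the Cyp26b1 values was not tested.

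The genes that followed Cyp26b1 over the 6 libraries most closely, of 11763 genes with a mean of at least 5 CPM, were Tmem47, Fbxo3, Tdp2, Khnyn and Noc3l (Pearson r of log2 CPM 0.997 to 0.999). Their changes were far smaller, with log2 fold changes of -0.34 to -0.17. At the other end were Kmt2b, Rfxank, Gm43413, Gm42772 and Ovca2 (r -0.996 to -0.963). These likenesses describe 6 libraries, which share their depth and age groups. Of the chosen genes, Rarb (0.95) and Rara (0.87) were the most like Cyp26b1 and Crabp1 (-0.46) the least.

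The enzymes that make retinoic acid did not show a common difference between the ages. Aldh1a1, which encodes retinaldehyde dehydrogenase 1, had 37.4, 35.7 and 36.6 CPM at 6 months and 11.2, 28.3 and 55.1 CPM at 24 months. The young mice were close together, whereas mouse 5 was above and mice 2 and 4 below all of them. The means were 36.6 ± 0.839 and 31.5 ± 22.1 CPM (SD, n = 3 each), and the log2 fold change was -0.21 ± 0.41 (SE, edgeR FDR 0.752). Without mouse 5 it was -0.88 with an edgeR FDR of 0.0886, and without mouse 2 it was 0.20. The aged mice had the order of Aldh1a1 in 7 of 7 oligodendrocyte markers, and also in 5 of 6 endothelial and 6 of 8 neuron markers. The oligodendrocyte markers had sums of 1270, 3070 and 4080 CPM in mice 2, 4 and 5. At 6 months these sums were 2950, 3740 and 2380 CPM in mice 10, 11 and 17, an order that Aldh1a1 did not share.

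Aldh1a2, the retinaldehyde dehydrogenase of the meninges in the adult brain, had 2.43, 4.17 and 7.88 CPM at 6 months and 3.17, 10.0 and 3.12 CPM at 24 months. Mouse 17 among the young and mouse 4 among the aged mice stood above the others, and the ages overlapped. On the log2 scale the difference was 0.17 ± 0.50 (SE, edgeR FDR 0.836), and without mouse 4 it was -0.61. The same 2 mice were the highest for 8 of 9 meningeal and fibroblast markers. The sum of those markers without Ptgds, which led it, was 35.6, 59.5 and 86.1 CPM at 6 months and 35.0, 96.5 and 48.0 CPM at 24 months. Crabp2, which encodes a carrier that hands retinoic acid to the receptors, followed the same mice at 1.75, 2.38 and 5.50 CPM and 1.33, 4.71 and 2.09 CPM. The part of the amount of meninges in these values was not tested.

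**Figure D2:**
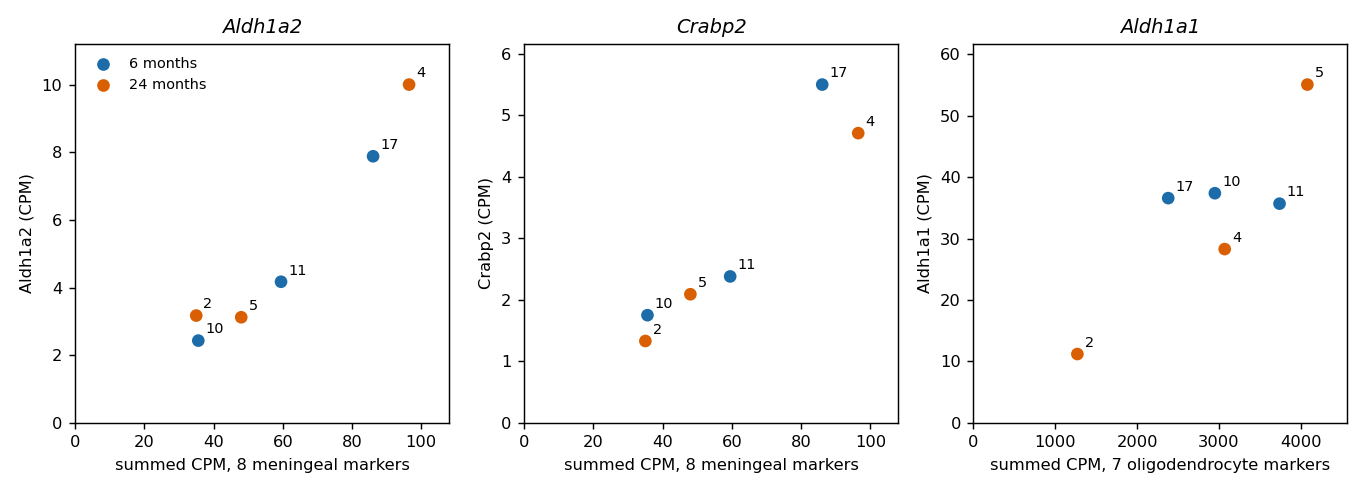
CPM of Aldh1a2 and Crabp2 against the summed CPM of 8 meningeal markers (without Ptgds), and of Aldh1a1 against 7 oligodendrocyte markers, 1 point per mouse. For Aldh1a2 and Crabp2 mice 17 and 4 are the highest on both axes, and for Aldh1a1 mice 2 and 5 are the ends of both axes.

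Aldh1a3, the third enzyme of the group, had 2.17, 2.69 and 4.52 CPM at 6 months and 4.62, 2.78 and 1.82 CPM at 24 months. The ages overlapped, and the log2 fold change of -0.03 ± 0.35 (SE, edgeR FDR 0.967) changed sign with the scaling. At the density of the sensory receptor genes, Aldh1a3 would have 3.47% of its observed counts at 6 months and 10.6% at 24 months. Per length, the 3 enzymes together were 31.8 to 41.8 TPM at 6 months and 17.8 to 49.2 TPM at 24 months. The amount of Cyp26b1 for every 100 TPM of these enzymes was 20.1, 11.4 and 10.7 in the young mice and 4.07, 5.57 and 3.70 in the aged mice. The ages did not overlap in this ratio, whose numerator was chosen for its difference.

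With TMM scaling Rara and Rarb were lower in all aged mice and Rarg was not, whereas with library totals Rara overlapped, Rarb stayed lower and Rarg was higher in all aged mice. Rara, which encodes the receptor RARα, had 12.9, 14.3 and 14.4 CPM at 6 months and 8.97, 11.7 and 9.32 CPM at 24 months. The means were 13.9 ± 0.867 and 10.0 ± 1.51 CPM (SD, n = 3 each), and the log2 fold change was -0.47 ± 0.14 (SE, edgeR FDR 0.0697). Rarb (RARβ) had 4.61, 4.84 and 5.16 CPM at 6 months and 2.68, 3.73 and 3.41 CPM at 24 months. The means were 4.87 ± 0.279 and 3.27 ± 0.537 CPM (SD, n = 3 each), a log2 fold change of -0.57 ± 0.17 (SE, edgeR FDR 0.0707). Both stayed lower in all 14 alternative analyses, but each passed an FDR of 10% in only 5 of them, and scaling by library totals ended both calls (log2 fold changes -0.28 and -0.38, edgeR FDR 0.218 and 0.169). With totals, mouse 4 had 12.6 CPM of Rara and mouse 10 had 11.9. Of the exonic bases of Rarb, 34.1% overlap Top2b on the opposite strand, and the counting did not use strand. Reads there cannot be told apart by strand, and whether any of them are in the Rarb counts was not tested. Top2b was at 103, 95.6 and 91.5 CPM at 6 months and 65.9, 87.5 and 82.0 CPM at 24 months. At the density of the sensory receptor genes, Rarb would have 2.55% of its observed counts at 6 months and 11.2% at 24 months.

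Rarg (RARγ) had 5.64, 4.75 and 4.95 CPM at 6 months and 4.84, 5.29 and 5.47 CPM at 24 months. The ages overlapped, and on the log2 scale they differed by 0.02 ± 0.15 (SE, edgeR FDR 0.925). With library totals it stood at 4.49 to 5.20 CPM at 6 months and 5.32 to 5.67 CPM at 24 months, a log2 fold change of 0.22 (edgeR FDR 0.333). The share of each receptor in the summed TPM of the 3 does not depend on the scaling between libraries. Rarg took 25.7%, 21.0% and 21.3% of it at 6 months and 30.7%, 26.8% and 31.6% at 24 months, and every aged mouse was above every young mouse. Rarb took 17.0% to 18.0% and 13.8% to 15.9%, and Rara took 57.3% to 61.8% and 52.5% to 58.0%, in which the ages overlapped. The retinoid X receptors, the partners of these receptors, did not pass the test, with log2 fold changes of -0.18 for Rxra, 0.24 for Rxrb and -0.31 for Rxrg (edgeR FDR 0.394, 0.542 and 0.474). Without mouse 17 Rxrb was at 0.63 (edgeR FDR 0.098), without mouse 10 at 0.03, and Rxrg ran from -0.75 without mouse 2 to -0.07 without mouse 5.

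**Figure D3:**
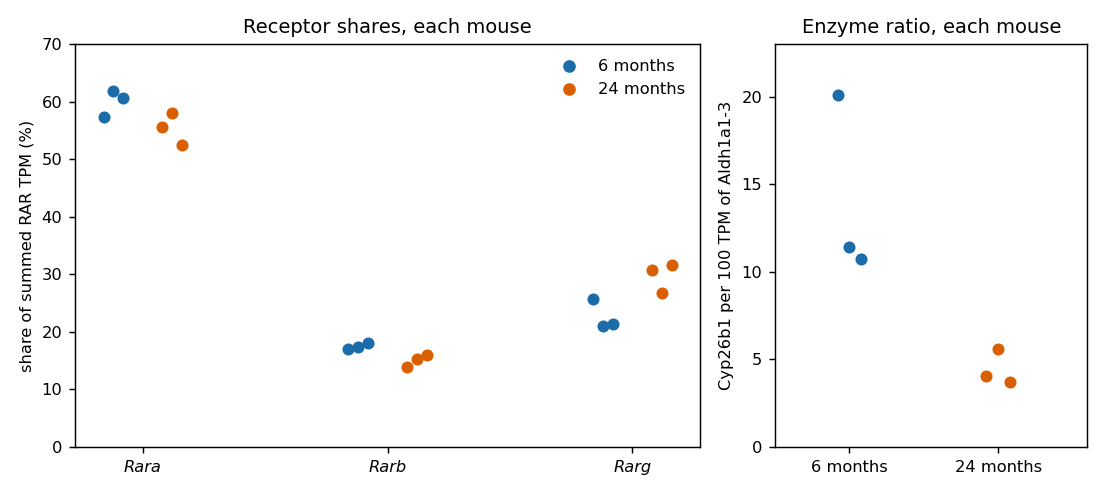
Left, share of Rara, Rarb and Rarg in the summed TPM of the 3 receptors, and right, Cyp26b1 TPM for every 100 TPM of Aldh1a1, Aldh1a2 and Aldh1a3, 1 point per mouse. Rarg lies at 21.0% to 25.7% at 6 months and 26.8% to 31.6% at 24 months, and the ratio lies at 10.7 to 20.1 and 3.70 to 5.57.

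The carriers differed in level more than in their change. Rbp4, the retinol carrier, had 34.0, 40.6 and 38.5 CPM at 6 months and 31.4, 31.0 and 23.8 CPM at 24 months. With TMM scaling all aged mice lay below all young mice, with means of 37.7 ± 3.39 and 28.7 ± 4.29 CPM (SD, n = 3 each). The log2 fold change was -0.39 ± 0.13 (SE, edgeR FDR 0.0893), but the gene passed an FDR of 10% in 2 of 14 alternatives. With library totals the log2 fold change was -0.20 (edgeR FDR 0.378) and the ages overlapped, at 34.6 CPM in mouse 2 and 31.3 CPM in mouse 10, as they did by TPM (89.2 and 88.4). Crabp1, a carrier of retinoic acid within cells, had 1, 13 and 3 counts at 6 months and 6, 10 and 8 counts at 24 months. A ratio of 1.37 (exact 95% interval 0.706 to 2.72, which covers counting error only) is all that this depth gives, and the ages overlapped. At the density of the sensory receptor genes, Crabp1 would have 10.9% of its observed counts at 6 months and 23.6% at 24 months.

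Per length, averaged over all 6 libraries, the levels were in the order Rbp4 (90.1 TPM), Aldh1a1 (25.2), Rara (9.96), Aldh1a2 (8.33), Rarg (4.43), Cyp26b1 (3.26), Rarb (2.81), Aldh1a3 (2.46) and Crabp1 (0.928). Rbp4 was the highest of the 9 in the mean over the libraries. Every library of Rbp4 (67.4 to 107 TPM) was above every library of Aldh1a1 (8.63 to 42.5 TPM). Each of the next neighbours from Aldh1a1 down to Aldh1a3 overlapped over the libraries, so that their order is one of means, and Crabp1 (0.141 to 1.66 TPM) overlapped Aldh1a3 (up to 3.81 TPM) too.

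Of the 9 genes, 0 passed the 1% FDR threshold in edgeR's quasi-likelihood test, as did 0.0% of all genes tested. The smallest adjusted p over all genes was 0.0210. At a threshold of 10% FDR, 4 passed (Cyp26b1, Rara, Rarb and Rbp4), all lower, beside 18.4% of all genes (10.0% higher and 8.33% lower). The same 4 had an unadjusted p under 0.05, beside 30.7% of all genes (17.6% higher and 13.1% lower). Cyp26b1 was chosen by this contrast, so that its place in these counts is no support for it. The other genes were also chosen with earlier results of these data known, so the counts are a description only. In 4 of 9 genes the ages did not overlap, all lower, beside 36.3% of all genes (20.0% higher and 16.3% lower). With library totals there were 3, of which Cyp26b1 and Rarb were lower and Rarg was higher, and 3 mice against 3 cannot go below p = 0.1 in an exact permutation test. At 1% FDR the likelihood ratio test, the exact test and DESeq2 each called Cyp26b1 alone of the 9, beside 5.18%, 3.38% and 0.836% of all genes. The median log2 fold change of the 9, with Cyp26b1 among them, was -0.21, beside 0.15 for all genes tested. Over genes of at least 1 CPM, a level that all of the 9 but Crabp1 reached, it was -0.14.

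The wider pathway was taken as 56 further genes, of which 53 were tested and 0 passed 1% FDR in the quasi-likelihood test. At 10% FDR 9 passed, 6 higher and 3 lower, a share of 17.0% beside the 18.4% of all genes. At an unadjusted p under 0.05 there were 15, 10 higher and 5 lower, a share of 28.3% beside 30.7% of all genes. The likelihood ratio test, the exact test and DESeq2 called 4, 2 and 0 at 1% FDR, beside 5.18%, 3.38% and 0.836% of all genes. For the 33 genes with a mean of at least 1 TPM, the share at 10% FDR over all genes of like level was not taken. Of these 33, 3 passed 10% FDR (9.09%, beside 18.4% of genes of all levels), all lower. They were the oxidoreductases Rdh14 (-0.29 ± 0.09 on the log2 scale, SE, edgeR FDR 0.0818) and Adh5 (-0.30 ± 0.10, edgeR FDR 0.0924). The third was Meis2 (-0.33 ± 0.09, edgeR FDR 0.0602), a transcription factor. With library totals these 3 did not pass, and Dhrs3, which was higher, was the 1 gene of that level that did. Of the genes of lower TPM, Stra6l, Lrat, Rdh16, Dhrs9, Adh4 and Cyp26c1 passed, all higher. Of these, Dhrs9, Adh4 and Cyp26c1 reached the minimum of 10 counts through the 24-month libraries alone, and a gene that does so has to be higher there.

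Among the expressed members of the pathway, the retinaldehyde reductase Dhrs3, which returns retinaldehyde to retinol, had 56.6, 51.9 and 59.1 CPM at 6 months and 67.8, 65.5 and 61.6 CPM at 24 months. All aged mice were above all young mice, by 0.22 ± 0.09 on the log2 scale (SE, edgeR FDR 0.154). With library totals the difference was 0.41 (edgeR FDR 0.0589), and with the filterByExpr minimum of edgeR it was 0.33 (edgeR FDR 0.0933). Rdh10, which oxidises retinol, differed by -0.06 (edgeR FDR 0.792), the retinol receptor Stra6 by 0.40 (0.285), and Ttr, which binds RBP4 in blood, by 0.32 (0.645). Without 1 mouse Stra6 ran from 0.18 (without mouse 10) to 0.69 (without mouse 17), and Ttr from 0.01 (without mouse 11) to 0.95 (without mouse 10).

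Of the low genes, Stra6l (a relative of Stra6) had 3, 8 and 7 counts at 6 months and 28, 16 and 18 counts at 24 months, a log2 fold change of 1.73 ± 0.43 (SE, edgeR FDR 0.0562). Lrat, which stores retinol as esters, had 5, 10 and 3 counts and 21, 18 and 14 counts (284% of the 6-month level, SE 0.44 on the log2 scale, edgeR FDR 0.0681). Rdh16, an oxidoreductase that shares exonic bases with Rdh18-ps, had 4, 2 and 7 counts and 17, 15 and 26 counts (2.08 ± 0.47, edgeR FDR 0.0535). In these 3 genes every aged mouse was above every young mouse. They were named by a rule that asks for this, as was Dhrs9, so it is no support for a difference. Dhrs9 had 4 counts in all at 6 months and 27 at 24 months, a ratio of 6.55 (exact 95% interval 2.28 to 25.8). It reached the minimum of 10 counts through the 24-month libraries alone, so its ratio and interval are no support for a difference. For the relatives of Cyp26b1, Cyp26a1 had 3, 3 and 5 counts and 11, 7 and 8 counts, a ratio of 2.29 (exact 95% interval 1.10 to 5.14). These intervals pool the mice of an age and cover counting error only, not the spread between mice. With mice as replicates, the edgeR FDR was 0.0611 for Dhrs9 and 0.135 for Cyp26a1. Cyp26c1 had 0 counts in every young mouse and 3, 5 and 3 counts in the aged mice, too few for a fold change. It reached the minimum of 10 counts through the 24-month libraries alone, so it had to be higher there. At the density of the sensory receptor genes, the counts at 24 months would be 109% of those observed for Stra6l, 71.2% for Lrat, 75.7% for Rdh16, 112% for Dhrs9, 53.8% for Cyp26a1 and 112% for Cyp26c1. Of the 23 genes of mean TPM under 1, Meis1 and Ret held 110 to 197 of the counts of each young mouse. The other 21, a sum chosen after these values were seen, had 51 to 88 counts at 6 months, beside 45.9 to 55.9 at that density, and 149 to 207 counts at 24 months, beside 122 to 187. The part of this density in the higher values was not tested.

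**Figure D4:**
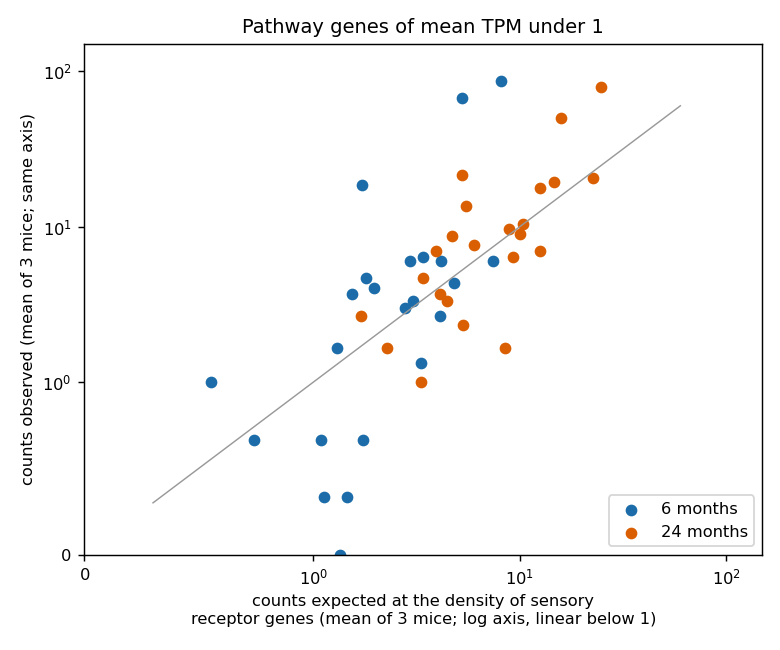
Counts of the 23 pathway genes of mean TPM under 1, as the mean of the 3 mice of each age, against the counts that a gene of the same length would have at the density of the sensory receptor genes (log axes, linear below 1). The grey line marks equal values, and without Meis1 and Ret, the 2 genes with the most counts, the others sum to 51 to 88 counts in the young and 149 to 207 counts in the aged mice.

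**Figure D5:**
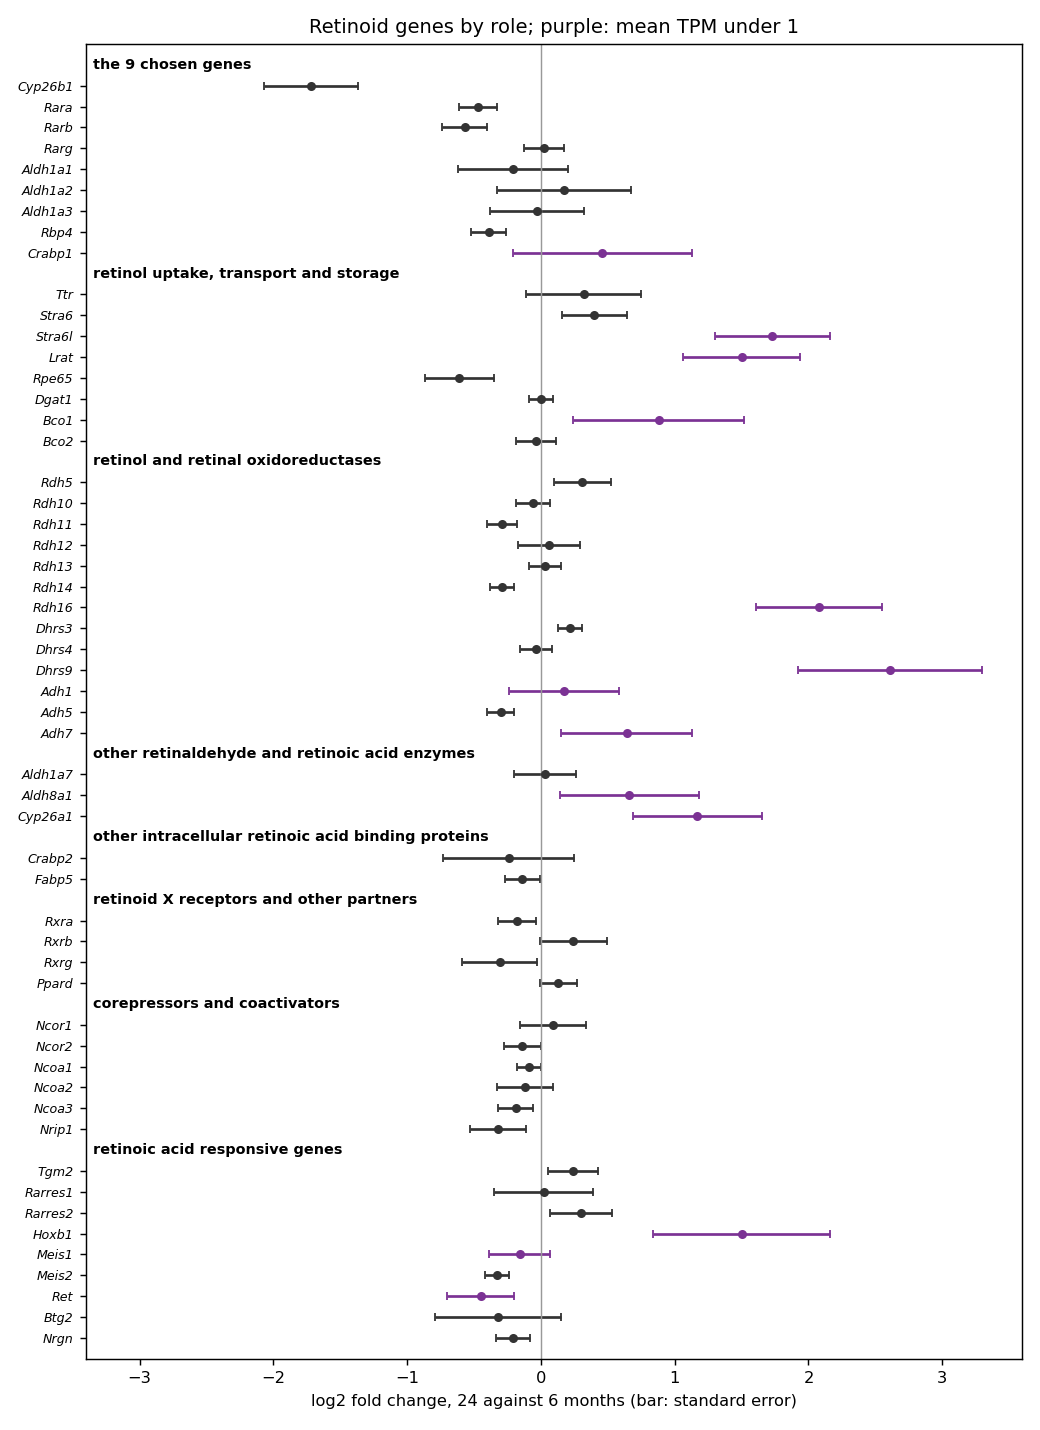
Log2 fold change of 24 against 6 months with its standard error for the 9 chosen genes and for 45 pathway genes of at least 30 counts, by role, with genes of mean TPM under 1 in purple. Cyp26b1 is at -1.72, and most purple genes lie to the right of 0.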

How the data were processed

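The cortex RNA of 6 mice was analysed, 3 per age, each mouse a separate animal. Per the labels and the methods of the study, the authors trimmed the reads with Trim Galore 0.6.4, mapped them to GRCm38 with STAR 2.7.3a and counted them on exons with featureCounts (Subread 2.0.0, mapping quality of at least 15). The authors deposited whole-number counts for each gene, without normalization. The stated counting options split a multi-mapping read among its positions, and how the deposited values became whole is not given in the sources used here, so the exact intervals take them as plain counts. The authors deposited TPM values too, computed from the counts and the gene lengths, and these were used for levels and shares. A minimum of 10 counts summed over the mice left 32905 genes for edgeR 4.0.16 (TMM scaling, quasi-likelihood test, no covariates) in R 4.3.3, with Benjamini-Hochberg adjustment over all of them. The study names edgeR and a threshold of 1% FDR but no test within it. The analysis was tested on simulated data. Alternatives were DESeq2 1.42.0, its size factors in edgeR, library totals, 2 filters, the likelihood ratio and exact tests of edgeR, limma 3.58.1 on log2(TPM + 1), and leaving out each mouse. Gene positions are from GENCODE vM21.

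The 9 genes, the pathway list and the marker lists were chosen with earlier results of these data known. All 9 genes were described. Of the pathway list, 10 genes were always named, apart from 1 gene that is not reported here, as were those with at least 30 counts, ages that did not overlap and a log2 fold change of at least 0.5 in size, at most 12. The split of the list by TPM, and the other genes named because they passed 10% FDR, were chosen after the values were seen. Totals of 29495379 to 36494240 counts leave low genes with a few counts, and the intervals cover counting error only. Marker lists were neurons, astrocytes, oligodendrocytes, microglia, endothelial cells, meninges, choroid plexus, striatum, claustrum and deep layers, interneurons and immediate early genes.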

Additional observations from a re-analysis of the deposited data

How the results depend on the processing

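The log2 fold change of Cyp26b1 ran from -2.05 to -1.37 when each mouse was left out in turn and stood at -1.21 by limma on log2(TPM + 1), where the pseudocount lowers it. At 1% FDR the number called of the 9 genes, 0 in the quasi-likelihood test, was 1 by the likelihood ratio test, the exact test and DESeq2, and of the pathway list 4 by the likelihood ratio test and 2 by the exact test. At 10% FDR the 4 called of the 9 fell to 1 with library totals, with no filter beyond 1 count and with filterByExpr, to 0 by limma on TPM, and to 0 to 4 without 1 mouse (0 without mouse 10, 11 or 4, and 1 without mouse 17 or 2). At an unadjusted p under 0.05 there were 2 with library totals. The 9 pathway genes called at 10% FDR became 4 with filterByExpr, 4 by DESeq2, 0 by limma on TPM and 0 to 13 without 1 mouse (0 without mouse 10, 11, 2 or 4, and 13 without mouse 5). The 15 pathway genes at an unadjusted p under 0.05 became 5 with filterByExpr, 9 by limma on TPM and 8 to 17 without 1 mouse. Ages did not overlap in 15 pathway genes with TMM scaling (28.3%, beside 36.3% of all genes). This count became 18 with library totals and 17 to 28 without 1 mouse. Fewer mice overlap less easily, and the share of all genes is not given for these alternatives.

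The sign of Aldh1a3 changed to 0.17 with library totals, 0.01 with no filter, 0.09 with filterByExpr and 0.05 by limma. Rxra changed to 0.01 with library totals, and Rdh10 to 0.13 with library totals, 0.06 with filterByExpr and 0.05 by limma. Without 1 mouse the log2 fold changes ran from -0.88 to 0.20 for Aldh1a1, -0.61 to 0.72 for Aldh1a2, -0.43 to 0.33 for Aldh1a3, -0.01 to 0.10 for Rarg, -0.00 to 1.90 for Crabp1, -0.90 to 0.39 for Crabp2 and -0.11 to 0.00 for Rdh10. The cause of these changes was not tested. No paired analysis was possible because the ages share no mouse numbers. With 3 mice per age and a few counts on low genes, differences of the size seen for Rara, Rarb and Rbp4 stand close to the threshold.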
